A study of Homo sapiens with 8 samples.

Results

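In CRISPR interference (CRISPRi) an sgRNA brings a nuclease-dead Cas9 fused to the KRAB repressor domain to a promoter, and transcription from the neighboring transcription start site (TSS) falls. The sgRNAs described here were those placed farthest into the transcribed side of their long non-coding RNA (lncRNA) target, 301 to 500 bp downstream of the listed TSS, with 11 to 14 G or C among the 20 bases of the guide. The distance was counted along the strand of the target, as the guide position minus the TSS position on the plus strand and the reverse on the minus strand. This rule used position and sequence only and no read counts. It gave 100 sgRNAs for 58 of the 957 lncRNA target IDs, out of 6389 targeting sgRNAs and 6862 sgRNAs in all.

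The screen compared 2 groups of 4 libraries each of the colorectal cancer line SW620, an established line from a metastasis, before screening (day 0) and after 18 days of culture, a time that the sample titles call day 17. All cells of both groups carried the dCas9/KRAB fusion and the same pooled sgRNA virus after puromycin selection, so the only labelled difference was the culture time. Read counts of the sgRNA in genomic DNA stood for the abundance of cells carrying it, and knockdown of the targets was not measured in these libraries. Labels did not tie equal replicate numbers to shared infections, so libraries were taken as separate samples. Total counts were 3417248 to 3999875 per library, and abundances were scaled by these totals to RPM, reads in 1e6 reads of the same library.

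A guide acts only where it binds, and KRAB-mediated silencing is known to be strongest close to a TSS and to weaken with distance into the gene body. The base composition of a guide also bears on how well Cas9 uses it, and guides of moderate GC content are usually preferred in library design. Loss of an sgRNA during culture is read as slower growth of the cells that carry it, and a rise as faster growth.

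The sequences of the members with the smallest unadjusted p in either direction, and of the most abundant one, are given 5′ to 3′ with G and C in capitals, since their number was part of the rule.
YLQ5207 (target T363195, 330 bp): CCaCGaCaGCaCCtGGGGGa
YLQ1896 (target T076256, 468 bp): GaCCtCtGGCCCCtaaCtCa
YLQ1112 (target TCONS_00026750, 424 bp): aGattGGaGGGtaGCGaCaG
YLQ4121 (target T284448, 382 bp): CtGCCCattCGGCCtCCCaa
YLQ532 (target T260185, 429 bp): aGCCGGCtCCGGGttGaaGt
YLQ801 (target T278516, 438 bp): aGCCCtatCCtCatGGCaCC
Positions are those of the deposited files, which name no genome build. Of 588 targeting guides with an exact match in a table of RefSeq promoters (GRCh38.p14), none lay within 100 bp of the GRCh38 position, so the files use other coordinates. No annotation in the coordinates of the files was used.

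The members covered the window unevenly. Their offsets ran from 302 to 500 bp with a median of 414 bp, and 24, 18, 35 and 23 of them lay in successive steps of 50 bp. Moderate GC content was uncommon among the library's guides this far downstream. Guides of like GC content numbered 191 in the last 20 bp before the window and 5 in its first 20 bp. The shares below describe the guides in the library, and the base composition of the surrounding sequence was not looked at. Only 19.7% of the 508 targeting guides in the window had 11 to 14 G or C, against 44.3% of the guides from 0 to 300 bp, and the median over the window was 8 of 20 bases. Among the members, 50, 21, 22 and 7 guides had 11, 12, 13 and 14 G or C. Exactly 50 guides ran on the strand of the target and 50 on the opposite strand. They lay on 18 chromosomes, most often on chromosomes 5, 10 and 12 with 18, 13 and 10 guides.

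Most target IDs, 52 of the 58 with 88 of the 100 guides, were a T and digits, the form used by the MiTranscriptome assembly of human transcripts. The other 6 began with TCONS, ENST or NR, and none of these matched a symbol in the RefSeq table. Members were not independent of one another. A single member was found for 34 targets, 24 targets had more than 1, and 11 had 3 or more. Sequences were all different, but 28 members lay within 20 bp of another member and so overlapped it on one or the other strand. In addition, YLQ963 and YLQ964 of T184399 shared most of their bases in 1 run, although they were listed at 366 and 493 bp.

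Some of these guides were far from their own TSS but close to another. For 34 of the 100 members a further listed target had its TSS within 500 bp. For 14 this was the same TSS under another ID, and so no closer. For 18 a further TSS put the guide between 250 bp upstream and 300 bp downstream of it, and some members were in both sets. These counts were not made for guides outside the rule. These 18 had a median log2 fold change of 0.02, with values from -0.35 to 0.26. The remaining 81 tested members had a median of 0.01. For instance, YLQ2023, 343 bp from the TSS of T056982, was 19 bp downstream of the TSS of T056985, and its log2 fold change was 0.13. No member matched a RefSeq promoter, taken as 250 bases before to 50 after a gene's start, whereas 7.77% of the guides of like GC content from 101 to 300 bp and 18.7% of those from 0 to 100 bp did. The rule itself keeps members out of the promoter of their own listed TSS, so this share was partly fixed by it.

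Starting abundance was not low. The median member had 91.7 RPM before screening, against 76.6 RPM over all sgRNAs, with a range of 2.51 to 957 RPM. At least 100 counts in each of the 4 libraries before screening, called well counted below, were reached by 81 members. Together the members took 1.73% to 1.75% of the counts before and 1.72% to 1.77% after screening, and the ranges overlapped.

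By the main test, edgeR, not one member was called as depleted or enriched after screening. Counts were tested with edgeR's quasi-likelihood test over all 6587 sgRNAs with enough counts, 99 of them members, and an sgRNA was called at a Benjamini-Hochberg adjusted p under 0.05. Over all tested sgRNAs 0.698% were called lower and 0.0759% higher, 0.774% in either direction. At the first of these shares, 99 guides would hold 0.691 calls on average, so that a count of 0 is near the background and does not set the members apart. The lowest adjusted p among them was 0.128 from edgeR. An unadjusted p under 0.05 was found for 1 member in the lower and 4 in the higher direction, 5.05% of those tested, against 6.19% over all tested sgRNAs (3.22% lower and 2.98% higher). DESeq2 called 1 member lower (YLQ5207), 1.01% of those tested against 1.41% of all tested sgRNAs, and had an unadjusted p under 0.05 for 6, or 6.06% against 8.90%. The methods' test (both tails) called no member on log2(RPM + 1) or on RPM, against 0.0911% and 0.334% of all tested sgRNAs. Its unadjusted p was under 0.05 for 6 members, or 6.06%, on either scale, against 6.56% and 6.42%.

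The fold changes were narrow around 0. The median log2 fold change of the 99 tested members was 0.01, the same as over all tested sgRNAs, with quartiles of -0.06 and 0.10. Values lay within 0.25 of 0 for 82 members, and beyond 0.58 for 3 of them (YLQ5207, YLQ1896 and YLQ1112). Below 0 were 41 members and above 0 were 58. From log2(RPM + 1) under each replicate number, the median over members was 0.05, 0.02, -0.01 and -0.04.

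A p that misses the threshold does not show that an abundance stayed level, so the 95% intervals of the edgeR fit were read as well. The interval lay above -1 on the log2 scale for 95 of 99 members and above -0.58 for 80. It lay between -1 and 1 for 88 and between -0.58 and 0.58 for 67. The median interval reached 0.32 to either side of its estimate. The 4 members whose interval went below -1 were YLQ5207 and 3 guides that were not well counted, YLQ3150, YLQ3834 and YLQ5173, whose log2 fold changes were -0.44, -0.13 and 0.09. For these 3 the interval did not exclude a loss of that size. These intervals cover the spread between libraries only.

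One member could not be tested. YLQ6505, 407 bp downstream of the TSS of T335846, had 15, 7, 14 and 2 counts in replicates 1 to 4 before screening and 1, 0, 1 and 8 after it. The values of the 2 groups overlapped, and at this depth no change could be measured.

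The lowest log2 fold change among the members was that of YLQ5207, at position 99019221 of chromosome 9. It lay 330 bp downstream of the TSS of T363195 and was listed on the strand of the target. It had 81.3, 63.3, 83.8 and 56.2 RPM in replicates 1 to 4 before screening and 33.0, 44.7, 51.1 and 46.2 RPM after it. All 4 libraries after screening lay below all 4 before it. The log2 fold change was -0.69 (standard error 0.20, 95% interval -1.09 to -0.29, adjusted p = 0.128 from edgeR), and the exact permutation p was 0.0286 (two-sided), the smallest that 4 against 4 libraries allow. With DESeq2 the adjusted p was 0.0184. It was the only one of the tested members whose libraries separated downward, or 1.01%, against 2.75% of all tested sgRNAs.
T363195 had 2 more members. YLQ5208, only 23 bp farther along and listed on the other strand, averaged 200 ± 11.4 RPM at the start and 212 ± 28.9 RPM at the end (SD over 4 libraries). YLQ5209, at 423 bp, averaged 291 ± 28.0 and 258 ± 17.7 RPM (SD over 4 libraries), and its log2 fold change of -0.16 had a 95% interval of -0.34 to 0.02 and was -0.10 without before screening replicate 3. The 3 tested guides of this target between 0 and 300 bp, which are not members, had log2 fold changes of 0.08, 0.05 and -0.03. EdgeR called none of them.

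The next members in the lower direction had smaller differences. YLQ3563, 470 bp downstream of the TSS of ENST00000564618.1, had 93.3, 77.0, 71.7 and 66.1 RPM before and 71.9, 67.8, 52.5 and 51.5 RPM after screening, and the groups overlapped. Its log2 fold change was -0.33 (95% interval -0.68 to 0.03, adjusted p = 0.839 from edgeR). YLQ963 at 366 bp of T184399 stood at -0.35, or -0.20 without before screening replicate 4, and YLQ3986 at 325 bp of T043253 at -0.14. YLQ964, which shares most of its sequence with YLQ963, was at 0.07 (95% interval -0.15 to 0.28). YLQ5145 of T194087 was at -0.15 and, like YLQ3986, had an exact permutation p of 0.0571. For YLQ5174 of T046666 and YLQ6274 of T289956, with log2 fold changes of -0.24 and -0.21, the lowest library was after screening replicate 4. It had 42.4 RPM of YLQ5174 against 75.8 to 89.7 RPM in the other 3, and 45.1 RPM of YLQ6274 against 64.4 to 92.9 RPM. Without it the log2 fold changes were -0.05 and -0.06. That of YLQ5174 was -0.36 without after screening replicate 3, and that of YLQ6274 was -0.39 without after screening replicate 1. YLQ5175 of T046666, at 418 bp on the same strand as YLQ5174, had 9 G or C and was not a member. Its log2 fold change was -0.53 (95% interval -0.92 to -0.14, adjusted p = 0.449 from edgeR), and its groups did not overlap. The other tested guides of T046666 outside the rule were at 0.10, -0.10, -0.08 and 0.04.

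In the opposite direction YLQ1112 came first by separation of its libraries. It lies at position 15940180 of chromosome 19, 424 bp downstream of the TSS of TCONS_00026750 and 391 bp from that of TCONS_00027489. Its abundance was 28.8, 22.0, 29.4 and 22.9 RPM before and 34.5, 44.4, 38.3 and 44.5 RPM after screening. All 4 libraries after screening lay above all 4 before it, as for no other member, although its counts in 2 of the libraries before screening were under 100. The log2 fold change was 0.66 (standard error 0.25, 95% interval 0.16 to 1.16, adjusted p = 0.508 from edgeR), with an exact permutation p of 0.0286. Libraries separated upward for 1.75% of all tested sgRNAs, and for 1.01% of the tested members. The other guides of this target lay between -0.20 and 0.10.

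The largest fold change among the members came from very few reads. YLQ1896, 468 bp downstream of the TSS of T076256, had 12, 20, 7 and 5 counts before and 17, 34, 74 and 16 counts after screening. These correspond to 2.83 ± 1.61 and 10.1 ± 7.98 RPM (SD over 4 libraries). After screening replicate 3 was the highest library, and the groups overlapped. The log2 fold change was 1.82 with a standard error of 0.64 and an adjusted p of 0.385 from edgeR. Without after screening replicate 3 it was 1.15. YLQ1897, of the same target and 31 bp nearer the TSS, was among the 4 most abundant members, with 727 ± 10.2 and 759 ± 45.4 RPM (SD over 4 libraries) and a log2 fold change of 0.07, or 0.11 without after screening replicate 4.
YLQ4121 of T284448 had 167, 134, 141 and 149 RPM before and 207, 160, 159 and 172 RPM after screening. YLQ532 of T260185 had 177, 160, 156 and 150 RPM before and 200, 176, 176 and 193 RPM after it. Both were higher under all 4 replicate numbers, but the groups overlapped. Their log2 fold changes were 0.25 and 0.23, with adjusted p values of 0.765 and 0.773 from edgeR, and without after screening replicate 1 that of YLQ4121 was 0.16. YLQ5143 of T194087, YLQ242 of T277465 and YLQ3836 of T062851 followed with 0.40, 0.26 and 0.13, and all 3 of their 95% intervals held 0. YLQ242 had 150 RPM in after screening replicate 4 against 86.3 to 99.5 RPM in the other 3, and its log2 fold change was 0.05 without that library and 0.16 without before screening replicate 4. For YLQ3836 it was 0.08 without after screening replicate 4 or before screening replicate 1.

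The most abundant members showed how small a change could have been seen where reads were many. YLQ801 had 934, 975, 971 and 949 RPM before and 983, 833, 909 and 1037 RPM after screening. The values after screening lay on either side of those before it, and the log2 fold change was -0.01 (95% interval -0.12 to 0.10). YLQ5146 of T194087 averaged 934 ± 41.8 and 920 ± 28.2 RPM, and YLQ3566 of ENST00000564618.1 averaged 715 ± 34.8 and 715 ± 36.6 RPM (SD over 4 libraries). Their 95% intervals were -0.11 to 0.09 and -0.10 to 0.12.

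The start site with the most members was that shared by T278516 and T278517 at position 6757866 of chromosome 5, both on the plus strand. It had 6 members, 324 to 481 bp downstream, and their log2 fold changes ran from -0.01 to 0.11. Over all their members, targets with 4 ranged more widely. The 4 members of ENST00000564618.1 ran from -0.33 to 0.09, the 4 of T062851 from -0.13 to 0.13, the 4 of T078900 from -0.44 to 0.12, the 4 of T132097 from -0.05 to 0.28 and the 4 of TCONS_00015544 from -0.08 to 0.38. The values -0.13, -0.44, 0.28 and 0.38 came from YLQ3834, YLQ3150, YLQ2853 and YLQ6374, which were not well counted. Without these guides T062851 ran from -0.05 to 0.13 and T078900 from -0.02 to 0.12. T132097 then ran from -0.05 to 0.21 and TCONS_00015544 from -0.08 to 0.01. All members at the shared start site and of ENST00000564618.1 were well counted. By edgeR none of these members was called.

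Along the window the level of the members moved little. Median log2 fold changes were 0.03, 0.03, -0.01 and 0.07 in the 4 successive steps of 50 bp. Guides listed on the strand of the target had a median of 0.01 over 49 tested, and guides listed on the opposite strand 0.05 over 50. By GC content the medians were 0.03, -0.01, 0.05 and -0.19 for 11, 12, 13 and 14 G or C. The last group had 7 guides, of which YLQ5207, YLQ963, YLQ3563 and YLQ5599 had log2 fold changes of -0.69, -0.35, -0.33 and -0.19. The other 3, YLQ2359, YLQ7310 and YLQ533, had -0.02, 0.00 and 0.05. Guides that begin with G had a median of -0.02 over 27, and the others 0.02 over 72. A run of TTTT, which can end transcription from the U6 promoter that drives sgRNAs, was present in 1 member, with a log2 fold change of 0.09. These are descriptions, and differences between the groups of guides were not tested.

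There were 3 members, of 2 targets, that shared their lncRNA with a guide outside the rule that edgeR called, and these comparisons were chosen after the values were seen. The only guide between 301 and 500 bp called by edgeR, YLQ5435, had 15 G or C and so missed the GC limit by 1 base. Its target T086195 also had a member, YLQ5436, that lies 12 bp closer to the TSS on the same strand and shares 8 bases with it.
YLQ5436 (397 bp, member): CCCatCaGGGGtGGttGaGG
YLQ5435 (409 bp, not a member): GGttGaGGGGGCaGCGGCaG
YLQ5435 had 92.8, 107, 91.3 and 106 RPM before and 49.8, 33.5, 43.5 and 45.7 RPM after screening, a log2 fold change of -1.19 (95% interval -1.55 to -0.84, adjusted p = 1.7e-05 from edgeR). YLQ5436 had 81.1, 95.3, 82.1 and 104 RPM before and 103, 97.0, 87.9 and 95.7 RPM after screening, a log2 fold change of 0.09 (95% interval -0.21 to 0.39). These guides, listed 12 bp apart with 8 bases in common, had intervals that did not meet, though the difference itself was not tested. The remaining 6 guides of T086195 lay between -0.40 and 0.30, and edgeR called none of them.

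The second case was T139945 on chromosome 17, with members YLQ577 at 394 bp and YLQ576 at 412 bp. Its guide YLQ580 at 292 bp, with 12 G or C and thus outside the rule by position alone, was called lower.
YLQ580 (292 bp, not a member): GaaatCCGtGGGGtCaGGGa
YLQ577 (394 bp, member): aatCttCCtaCCCCGaaGCC
YLQ576 (412 bp, member): CCtGGGtGCtCCCaaGGaCa
YLQ580 had 41.8, 40.0, 65.4 and 45.0 RPM before and 16.1 to 31.0 RPM after screening. Its groups did not overlap, and its log2 fold change was -1.19 (95% interval -1.72 to -0.65, adjusted p = 0.00997 from edgeR). YLQ577 had 30.3, 13.5, 23.6 and 19.3 RPM before and 31.1, 15.9, 14.2 and 18.7 RPM after screening. YLQ576 had 40.3, 44.5, 38.6 and 30.4 RPM before and 59.4, 46.5, 40.0 and 33.4 RPM after it. The groups overlapped for both members. Their log2 fold changes were -0.10 and 0.23, with 95% intervals of -0.79 to 0.59 and -0.23 to 0.70. The interval of YLQ577 met that of YLQ580, and the interval of YLQ576 lay above it. The other 3 tested guides of T139945 between 0 and 300 bp had log2 fold changes of 0.10, 0.02 and 0.10. No other target of a member had a guide called by edgeR at any position.

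For 44 targets the members could be set against tested guides of the same target from 0 to 300 bp. The median over targets of the difference, members minus nearer guides, was 0.02 on the log2 scale, with quartiles of -0.14 and 0.19. It was positive for 26 targets and negative for 18. The extremes were -0.70 and 1.05, the latter at T076256, whose value comes from YLQ1896.

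Guides of like GC content at other positions had similar medians. Calls in the lower direction were made by edgeR for 14 of 1355 tested guides between 101 and 300 bp, 7 of 668 up to 100 bp and 7 of 411 upstream of the TSS, and for 0 of 395 guides of lower GC content in the same window (21 with an unadjusted p under 0.05 from edgeR). The medians were 0.00, 0.01, 0.01 and 0.02. Among well counted guides, the SD of log2 fold changes was 0.16 over the 81 members, 0.15 over 287 guides of lower GC content in the window and 0.14 over 347 non-targeting guides. It was 0.21, 0.20 and 0.24 in the other 3 positions. The order depended on the limit on counts. Over all tested guides the SD was 0.26 for the members, 0.27 for guides of lower GC content in the window, 0.31 for non-targeting guides, and 0.31, 0.29 and 0.49 in the other 3 positions. The members' SD ran from 0.153 to 0.184 with 1 library left out at a time. Among well counted guides, libraries of 1 group also differed more over members than over non-targeting guides. The median SD of log2(RPM + 1) was 0.131 before and 0.206 after screening against 0.112 and 0.181. Other guides of like GC content also lay above the non-targeting ones. They had 0.126 and 0.207 upstream, 0.125 and 0.191 from 101 to 300 bp, and 0.123 and 0.186 up to 100 bp. Guides are not replicates, and the differences in spread were not tested.

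Values just inside and just outside the limits of the rule are given as a description. In the last 20 bp before the window, 181 tested guides of like GC content had a median log2 fold change of 0.01 with 2 calls. In its first 20 bp, 5 members had a median of 0.06 and no call. In the window itself, 55 guides with 10 G or C had a median of 0.00, and the 3 with 15 or more had values of -1.19, -0.17 and 0.17.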

How the data were processed

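The values are raw counts that the authors deposited, 1 table per library, of sequencing reads assigned to each sgRNA after PCR from genomic DNA. They were neither normalized nor pooled. FastQC 0.11.2, Bowtie and hg38 stand in the processing notes of the submitters without a role, and how reads were assigned to sgRNAs is not given in the sources used here. PCR reads carry no molecular identifiers, so intervals do not count molecules.

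Groups and replicate numbers came from the sample titles. The quasi-likelihood test of edgeR 4.0.16 (R 4.3.3; glmQLFit with robust set, then glmQLFTest) ran over the whole table after filterByExpr, with TMM factors of 0.993 to 1.01. Standard errors were derived from each F statistic and its fold change. RPM used the library total. Exact permutation tests took all 70 splits of 8 libraries into 4 and 4 on log2(RPM + 1). Sequences and positions came from the files, with promoters from RefSeq. Named were any called member, the 8 members with the smallest p in each direction and the 4 most abundant before screening. The members and lists were chosen with earlier results of these data known. Steps were tested on simulated data. Alternatives were DESeq2 1.42.0, total counts, scaling on the non-targeting guides, no filter, a minimum of 100 counts at the start, a block for the replicate number, the methods' test with both tails, other GC limits and each library left out. P values measure the spread between these libraries. Guides on chromosome 8 are given without sequence.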

Additional observations from a re-analysis of the deposited data

Results flagged for a closer look

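Of the 38 groups of 4 libraries looked at for the 19 named members, 1 held a library far from the other 3. YLQ5143, 467 bp downstream of the TSS of T194087, had 48.0 RPM in before screening replicate 2 against 29.7 to 32.5 RPM in the others. Chance alone marks about 1 in 20 such groups.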

How the results depend on the processing

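The number of members called higher was 0 under every alternative run. The number called lower was 0 except with DESeq2, where it was 1 (YLQ5207, log2 fold change -0.70), and it was also 1 (YLQ5435) when the GC limits were widened to 10 to 15 or dropped. It was 0 with each library left out in turn, where the adjusted p of YLQ5207 from edgeR ran from 0.0837 to 0.635. Without 1 library the median of the members ran from -0.0023 to 0.0274 and the SD over well counted members from 0.153 to 0.184, the highest without after screening replicate 1. The fold changes of 3 abundant members close to 0 changed sign when single libraries were left out, with ranges of -0.0638 to 0.0399 for YLQ801, -0.0280 to 0.0220 for YLQ5146 and -0.0102 to 0.0452 for YLQ3566. Of 302 values of named members under the alternatives, 292 kept their direction and side of the threshold.

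Libraries with the same replicate number correlated weakly in their deviations from the group means (r = 0.0900, 0.115, 0.0849 and 0.0884 for numbers 1 to 4, against -0.0582 to -0.0115 between different numbers), and each correlated best with its own number, a hint from the data and not from the design. With the replicate block, 0 members were called lower and 0 higher, and 5 had an unadjusted p under 0.05. The median log2 fold change of the members was 0.0079. YLQ5207 came close to the threshold, with an adjusted p of 0.0563 from edgeR with the block. Over all tested sgRNAs the block moved the number of calls from 51 to 59. Depth limits what can be said of the 18 tested members that were not well counted.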
